A study of Homo sapiens with 3 samples.

Results

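BRINP3, ZNF385D, COL21A1, NAV3 and TEX19 were the 5 human genes, other than the marker mCherry and the matrix protein gene MGP, that reached a level of at least 5 CPM, counts (UMIs) per 1000000 of the population's UMIs, in resistant monoculture and stood at least 16 times above sensitive monoculture. They were 5 of 22499 rows with a gene symbol in the count tables. A UMI is a unique molecular identifier, the tag that lets each captured RNA molecule be counted as 1. Among 8452 genes of at least 5 CPM in resistant monoculture, 7 met both limits, which is 0.0828%. The genes were chosen by their levels in the 2 monocultures, so those levels and their ratio are given as a description only.

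The cells were CAMA-1, an established line of estrogen receptor positive luminal breast cancer, grown as 3D spheroids that were plated at 2000 cells and treated with 1 µM ribociclib, an inhibitor of the cell cycle kinases CDK4 and CDK6, for 11 days before single-cell RNA sequencing. Sensitive cells carried a lentiviral Venus marker (mVenus) and resistant cells, a line derived from the same cells by months of culture in ribociclib, carried mCherry. The 3 libraries were 100% sensitive cells, a coculture plated at 50% of each, and 100% resistant cells, and no untreated library was analysed here. The authors' annotation split the coculture by marker, each kept cell holding at least 1 UMI of its own marker and 0 of the other, which gave 4 populations: sensitive monoculture (3329 cells), sensitive coculture (2059 cells), resistant coculture (6292 cells) and, from the third library, resistant monoculture (7557 cells). Each condition was 1 library of 1 derived line, so a difference between conditions cannot be told apart from a difference between libraries, and no test across samples was possible.

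The genes belong to different families. BRINP3 encodes a secretory pathway protein of a family first described in neurons, where bone morphogenetic protein (BMP) and retinoic acid induce it, and whose members can slow the cell cycle when forced on. ZNF385D encodes a zinc finger protein. COL21A1 encodes the chain of a collagen of the fibril-associated (FACIT) type, a secreted protein of the extracellular matrix. NAV3 encodes neuron navigator 3, which binds growing microtubule ends. TEX19 is a germline gene that is normally silent in most adult tissues and that in mice holds back retrotransposons, the mobile elements of the genome.

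They lie on different chromosomes. In the GRCh37 build, with GENCODE 44 annotation, BRINP3 (ENSG00000162670) spans 1:190066788-190447534, ZNF385D (ENSG00000151789) spans 3:21453710-22414812, COL21A1 (ENSG00000124749) spans 6:55921388-56258892, NAV3 (ENSG00000067798) spans 12:77718421-78606790 and TEX19 (ENSG00000182459) spans 17:80317123-80321651. All are protein coding. TEX19 covers 4.529 kb, whereas the other genes cover 338 to 961 kb. The antisense gene ZNF385D-AS1, which lies within ZNF385D on the opposite strand, was listed with 0 UMIs in both monocultures.

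The RefSeq table of start sites (GRCh38.p14) held 8 windows for 4 of the genes, each running from 250 bases before a transcript start to 50 bases after it. The window with the most CG pairs is shown for each gene because CG pairs are the sites of DNA methylation, a mark found at genes that are off in some cells. The capitals mark every CG pair:
BRINP3, chr1:190475938-190476237, minus strand: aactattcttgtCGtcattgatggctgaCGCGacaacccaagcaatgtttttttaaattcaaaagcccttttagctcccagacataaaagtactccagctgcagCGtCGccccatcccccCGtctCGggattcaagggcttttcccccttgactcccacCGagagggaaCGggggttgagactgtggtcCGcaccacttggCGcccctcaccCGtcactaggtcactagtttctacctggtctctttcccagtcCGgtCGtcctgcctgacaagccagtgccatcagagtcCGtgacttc
ZNF385D, chr3:21751161-21751460, minus strand: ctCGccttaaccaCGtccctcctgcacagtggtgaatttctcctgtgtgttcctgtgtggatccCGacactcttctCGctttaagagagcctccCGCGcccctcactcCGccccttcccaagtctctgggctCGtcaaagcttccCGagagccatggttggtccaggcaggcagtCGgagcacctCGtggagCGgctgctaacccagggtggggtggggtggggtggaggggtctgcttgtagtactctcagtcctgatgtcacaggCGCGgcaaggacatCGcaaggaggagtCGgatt
COL21A1, chr6:56247531-56247830, minus strand: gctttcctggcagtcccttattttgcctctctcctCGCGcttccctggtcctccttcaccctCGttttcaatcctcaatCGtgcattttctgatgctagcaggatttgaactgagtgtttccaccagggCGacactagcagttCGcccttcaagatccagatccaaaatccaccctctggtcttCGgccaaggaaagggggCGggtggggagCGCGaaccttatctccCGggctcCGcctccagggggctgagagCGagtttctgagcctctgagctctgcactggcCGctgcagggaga
NAV3, chr12:78036364-78036663, plus strand: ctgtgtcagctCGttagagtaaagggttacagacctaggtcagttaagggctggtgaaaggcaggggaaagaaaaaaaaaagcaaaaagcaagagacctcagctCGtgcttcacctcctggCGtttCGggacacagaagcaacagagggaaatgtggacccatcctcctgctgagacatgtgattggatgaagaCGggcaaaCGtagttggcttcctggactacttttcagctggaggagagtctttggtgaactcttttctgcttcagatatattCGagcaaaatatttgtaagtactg
The windows shown held 15 CG pairs in BRINP3, 16 in ZNF385D, 14 in COL21A1 and 7 in NAV3. The median over 35116 windows of the same length in the table was 14 pairs, so the first 3 stood near it and NAV3 stood below it, with 63.2% of windows holding as many or more. The windows shown were the richest of each gene, whereas the median took every window. The other 4 windows of these genes held 2 to 4 pairs. None of the 8 windows held an estrogen response element GGTCANNNTGACC, the cores of a DR5 retinoic acid response element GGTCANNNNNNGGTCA or an AP-1 motif TGANTCA on either strand. These stood in 0.057%, 0.0541% and 7.71% of all windows. The DR5 element with both half-sites in full, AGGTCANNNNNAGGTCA, which the core form includes, stood in 0.0057% of windows. No methylation was measured in this series.

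The libraries held 173405094, 519475237 and 359599734 UMIs over 8643, 20227 and 11502 barcodes, and the median annotated cell held 27622 to 35443 UMIs by population. The cells were luminal by their markers: all 7 luminal genes were detected in each population with a summed level of 7659 to 9605 CPM, against 2.64 to 38.4 CPM for fibroblast, 0.405 to 1.16 CPM for immune, 0.0701 to 0.301 CPM for endothelial and 3.003 to 4.39 CPM for neuronal markers. Of 6 fibroblast genes, 2 to 5 held UMIs by population, and LUM was at 0 throughout. Their sum was 38.4 and 22.3 CPM in sensitive cells alone and in coculture, and 5.14 and 2.64 CPM in resistant cells in coculture and alone. mCherry had 0 UMIs in sensitive monoculture, which allows up to 0.0312 CPM, and 53.9 CPM in resistant monoculture, where 72.9% of cells held a UMI of it. Libraries shared 34 to 60 barcode sequences in pairs, 7 to 17 of them annotated in both. All intervals below are 95% intervals for counting error only.

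The monocultures defined the genes. BRINP3 was at 0.166 CPM in sensitive cells grown alone, 3.43 CPM in sensitive cells from the coculture, 28.7 CPM in resistant cells from the coculture and 28.7 CPM in resistant cells grown alone. ZNF385D was at 0.0104, 1.57, 16.3 and 18.5 CPM in the same order. These genes were therefore close to absent in sensitive cells grown alone, with 16 UMIs of BRINP3 and 1 UMI of ZNF385D among 3329 cells, against 7786 and 5024 UMIs in resistant monoculture. COL21A1, the collagen gene, was at 0.208, 1.40, 8.997 and 9.05 CPM. NAV3 was at 0.0312, 2.36, 21.8 and 17.1 CPM. TEX19 was at 0.571, 1.76, 6.87 and 11.4 CPM. The sensitive coculture level lay between the sensitive monoculture level and both resistant levels in each of the 5 genes.

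**Figure D1:**
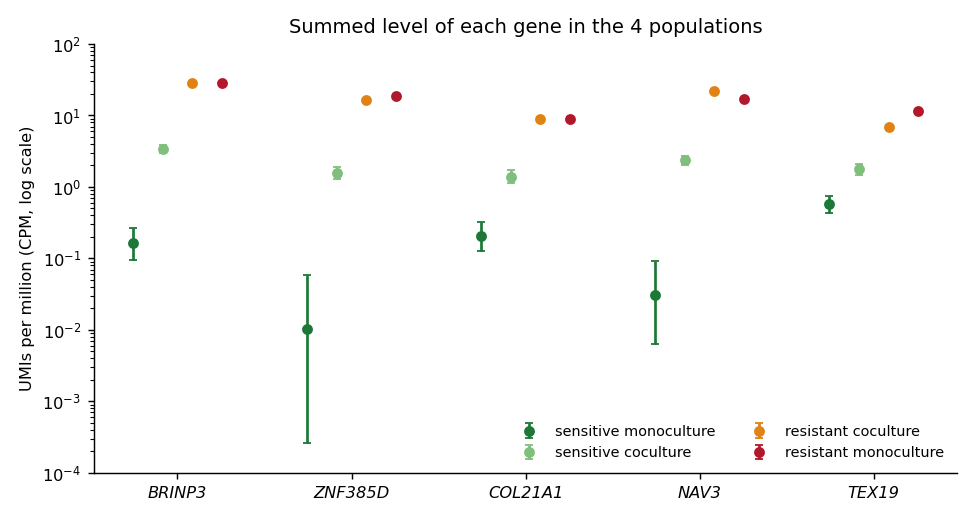
Summed level of each gene in the 4 populations, in CPM on a log scale. Points are the levels, bars the 95% Poisson interval for counting error. Sensitive monoculture is lowest for every gene, between 0.0104 and 0.571 CPM, sensitive coculture lies between 1.40 and 3.43 CPM, and both resistant populations lie between 6.87 and 28.7 CPM.

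The ratio of resistant to sensitive monoculture ran from 19.97 for TEX19 (interval 15.3 to 26.6) through 43.6 for COL21A1 (28.1 to 71.4) to 173 for BRINP3 (106 to 303). For NAV3 it was 548, from 3 UMIs in sensitive monoculture, with an interval of 187 to 2658. For ZNF385D it was 1785, from 1 UMI, with an interval of 320 to 70519. The last ratios are thus known only to within more than an order of magnitude. Just inside the limit of 16 stood MGP at 16.1, then TEX19 and COL21A1. Just outside it stood PCDH19, a protocadherin, at 12.0, FKBP10, a chaperone of collagen folding, at 11.6 and MUC5B, a secreted mucin, at 9.04.

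The few UMIs in sensitive monoculture were spread unevenly. COL21A1 had 7 of its 20 UMIs in 1 cell, and BRINP3 had 5 of its 16 UMIs in 1 other cell. Without the cell of most UMIs, the levels were 0.135 CPM for COL21A1 and 0.114 CPM for BRINP3. The 55 UMIs of TEX19 lay in 51 cells with at most 2 in any. Of the 3329 cells, 1 held UMIs of 2 of the 5 genes and none held more.

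In resistant cells each gene was found in 13.8% to 57.5% of cells. A UMI of BRINP3 was found in 57.5% of resistant monoculture cells (56.3 to 58.6) and 53.6% of resistant coculture cells, against 9.13% of sensitive coculture and 0.360% of sensitive monoculture cells. For ZNF385D the shares were 43.0%, 35.9%, 4.08% and 0.03%. For NAV3 they were 35.6%, 37.7%, 6.56% and 0.0901%. COL21A1 was found in 20.4%, 18.3%, 4.32% and 0.421%, and TEX19 in 21.6%, 13.8%, 4.95% and 1.53%. These shares rise with depth: with every cell thinned to 5000 UMIs, the share of resistant monoculture cells with a UMI was 13.1% for BRINP3 and 4.86% for TEX19, and that of sensitive monoculture cells 0.0601% and 0.33%. The median depth was 35443 UMIs in resistant monoculture, 30687 in resistant coculture, 34056 in sensitive coculture and 27622 in sensitive monoculture.

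At least 1 UMI of the 5 genes was found in 87.4% of resistant monoculture, 83.9% of resistant coculture, 22.6% of sensitive coculture and 2.40% of sensitive monoculture cells. All 5 genes were found together in 65 resistant monoculture cells (0.86%) and 26 resistant coculture cells (0.413%). At least 2 of them were found in 57.6% and 51.0% of resistant cells, in 5.05% of sensitive coculture cells (4.15 to 6.09) and in 0.03% of sensitive monoculture cells (0.000761 to 0.167). Within the resistant populations, the depth-corrected UMIs of a pair of genes were nearly unrelated from cell to cell: over 20 values, 10 pairs in each population, r ran from -0.0349 to 0.074. These are correlations across cells of 1 library each, in sparse counts, and are given as a description.

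**Figure D2:**
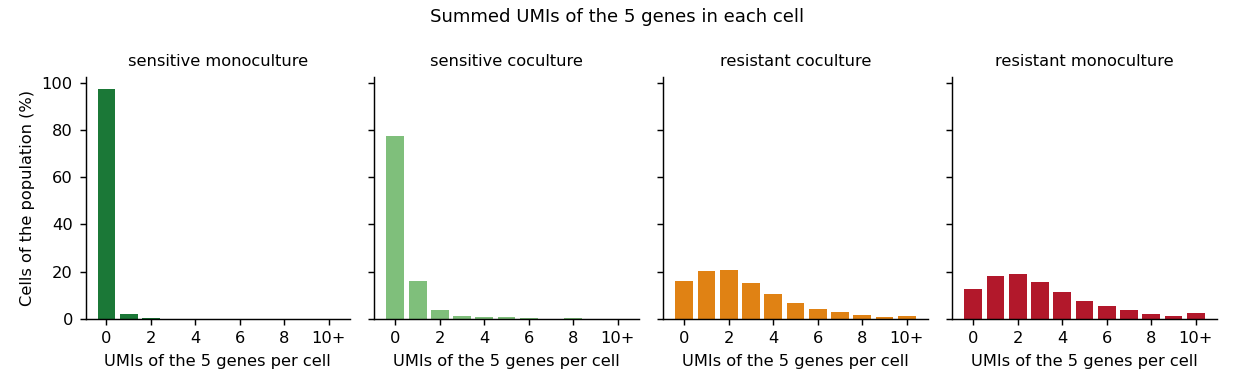
Share of cells, in percent of each population, by the summed UMIs of the 5 genes in a cell. Cells without any make up 97.6% and 77.4% of the sensitive cells alone and in coculture, and 12.6% and 16.1% of the resistant cells alone and in coculture.

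The genes differed in how unevenly resistant cells carried them. The squared coefficient of variation between cells beyond counting error was 0.409 in resistant monoculture and 0.382 in resistant coculture for BRINP3, and 0.468 and 0.517 for ZNF385D. It was 1.09 and 1.21 for NAV3, 2.86 and 2.77 for COL21A1 and 6.14 and 7.07 for TEX19. The median over 6185 genes of 5 to 50 CPM in resistant monoculture was 0.149. All 5 genes thus varied more from cell to cell than the median gene, and the order of the genes was the same in both libraries. In resistant monoculture 88.1% of those genes had a lower value than BRINP3 and 99.7% a lower value than TEX19. TEX19 reached 53 UMIs in 1 resistant monoculture cell and 10 or more in 11 cells, and 27 UMIs in 1 resistant coculture cell, with 10 or more in 4.

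The coculture library was not used to choose the genes, and there all 5 were again higher in resistant than in sensitive cells, but by far less. The ratio was 8.37 for BRINP3 (interval 7.36 to 9.56), 10.4 for ZNF385D (8.63 to 12.7) and 9.27 for NAV3 (7.94 to 10.9). It was 6.44 for COL21A1 (5.26 to 7.97) and 3.90 for TEX19 (3.24 to 4.72). All 5 were at least 2-fold higher, where 0.745% of 8596 genes of at least 5 CPM in resistant coculture were. None of the 5 reached 16-fold, which 0.0116% of those genes did, namely mCherry alone, whose UMIs define the classes. In cells with at least 2 UMIs of their own marker, 1 of the 5 did, ZNF385D at 17.1-fold. Expressed the other way, sensitive coculture cells held 11.9% of the resistant coculture level of BRINP3 (10.5 to 13.6), 9.59% of ZNF385D, 10.8% of NAV3, 15.5% of COL21A1 and 25.7% of TEX19 (21.2 to 30.8). Sensitive cells with at least 2 mVenus UMIs held 7.46% for BRINP3, 5.49% for ZNF385D, 7.86% for NAV3, 9.96% for COL21A1 and 19.2% for TEX19.

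All 5 genes were at least 2-fold higher in sensitive cells from the coculture than in sensitive monoculture, as 2.91% of 11287 genes of at least 1 CPM in either population were. The rule took genes that were low in sensitive monoculture, and this ratio shares that library, so the count is not independent of it. The ratio was 20.6 for BRINP3 (12.4 to 36.6), 6.72 for COL21A1 (4.13 to 11.5) and 3.09 for TEX19 (2.23 to 4.32). For NAV3 it was 75.6 (25.4 to 370) and for ZNF385D 151 (26.5 to 6005), from 3 and 1 UMIs in sensitive monoculture.

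Other lineage genes moved beside them. MGP, high in resistant cells, was at 404 and 1041 CPM in sensitive cells alone and in coculture, and at 5983 and 6497 CPM in resistant cells in coculture and alone. FABP7, a fatty acid binding protein gene that was high in sensitive cells, was at 1398, 289, 14.4 and 0.808 CPM in the same order. FABP7 in resistant coculture cells thus stood at 4.99% of its sensitive coculture level, and 18.2% of resistant coculture cells held a UMI of it against 1.79% of resistant monoculture cells. The part of RNA from outside the cell, or of droplets with more than 1 cell, in the sensitive coculture levels was not tested.

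Sensitive coculture cells differed among themselves. The authors' clusters 3 and 7 held 1704 of the 2059 cells and 422 of the 745 UMIs of the 5 genes. Another 100 cells, 4.86% of the population, lay in clusters 0, 1, 2 and 5, which held most resistant cells, and they carried 216 of the UMIs, or 29.0%. In these 100 cells BRINP3 was at 25.1 CPM, ZNF385D at 12.9, COL21A1 at 5.68, NAV3 at 14.4 and TEX19 at 6.58 CPM. That is 63.2% to 95.8% of the resistant coculture levels, with intervals that include 100% for BRINP3, ZNF385D and TEX19 and end at 98.9% for COL21A1 and 87.3% for NAV3. MGP was at 5245 CPM in them and FABP7 at 96.6 CPM, and 79.0% of them held a single mVenus UMI, against 42.6% of cells in clusters 3 and 7. The authors built the clusters on the most variable genes of these same cells, so these values describe the cells and test nothing.

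In clusters 3 and 7 the genes stood lower but above sensitive monoculture taken over all its clusters. BRINP3 was at 2.02 CPM there, ZNF385D at 0.817, COL21A1 at 1.2, NAV3 at 1.53 and TEX19 at 1.47 CPM. These were 5.001% (ZNF385D) to 21.3% (TEX19) of the resistant coculture levels. FABP7 was at 275 CPM and MGP at 760 CPM in the same cells. The remaining 255 sensitive cells of other clusters held 107 UMIs, with BRINP3 at 5.03 CPM. Within cluster 3 alone TEX19 was not higher in coculture. It was at 1.35 CPM (1.00 to 1.78) there and at 1.43 CPM (0.737 to 2.49) in 267 sensitive monoculture cells. In cluster 7 TEX19 was at 1.65 CPM in coculture and 0.342 CPM in sensitive monoculture.

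The levels also differed with the number of mVenus UMIs in a cell. BRINP3 was at 5.11 CPM in the 932 sensitive coculture cells with 1 mVenus UMI, 2.55 CPM in the 521 cells with 2, 2.27 CPM in the 261 cells with 3 and 1.47 CPM in the 345 cells with 4 or more. ZNF385D was at 2.44, 0.999, 1.08 and 0.62 CPM in the same order, and COL21A1 at 2.05, 1.11, 0.864 and 0.62 CPM. These genes and NAV3 were highest in the cells with 1 mVenus UMI, NAV3 being at 3.19, 1.61, 2.05 and 1.63 CPM. TEX19 was also highest there, at 2.34 CPM, with 0.833, 1.19 and 2.09 CPM in the others.

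**Figure D3:**
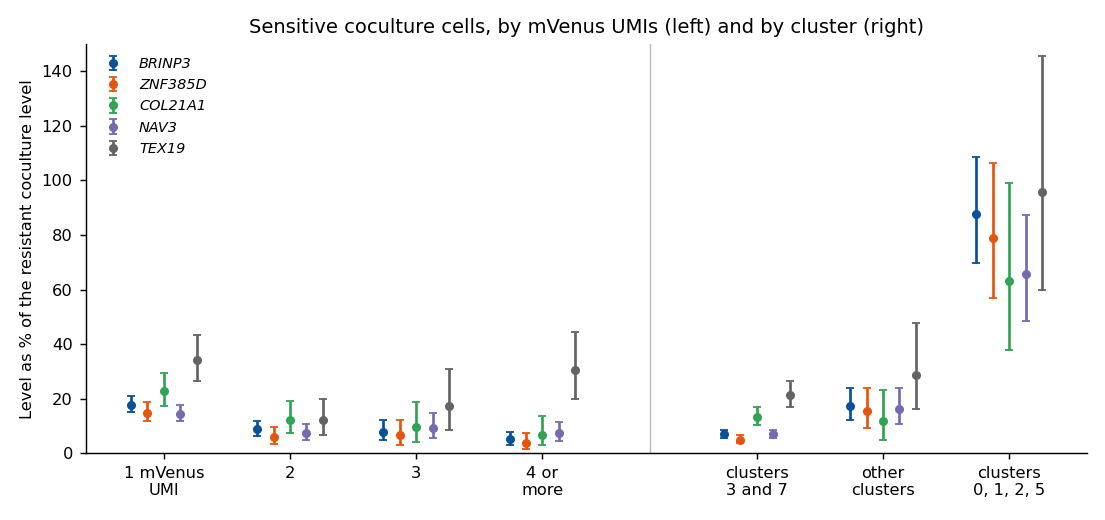
Level of each gene in sensitive coculture cells as percent of its level in resistant coculture, with 95% intervals for counting error. Left, cells by their number of mVenus UMIs; right, cells by the authors' clusters. The 100 cells in clusters 0, 1, 2 and 5 stand at 63.2% to 95.8%, all other groups at 34.1% or less.

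Most sensitive coculture cells held no UMI of these genes, and a few held many. Of the 2059 cells, 1594 held 0 UMIs of the 5 genes, 329 held 1, 75 held 2, 51 held 3 to 5 and 10 held 6 to 11. The median MGP level was 355 CPM in the cells with 0, 433 with 1, 740 with 2, 3608 with 3 to 5 and 7049 CPM in the 10 cells with the most. FABP7 was at 303, 260, 243, 204 and 44.2 CPM in the same groups. The cells rich in the 5 genes were therefore also rich in MGP and lower in FABP7, and 80.0% of the 10 cells held a single mVenus UMI. In resistant coculture the median cell had 4747 CPM of MGP, and in sensitive monoculture 35.4 CPM.

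The mixture of the 5 genes was not the same on both sides of the coculture. TEX19 made up 16.8% of their summed UMIs in sensitive coculture cells (14.2 to 19.7) against 8.31% in resistant coculture cells (7.89 to 8.74). In clusters 3 and 7 it made up 20.9% (17.1 to 25.0), and in sensitive monoculture 57.9%. ZNF385D made up 11.6% in clusters 3 and 7 (8.71 to 15.1) against 19.7% in resistant coculture cells (19.1 to 20.4).

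Between the resistant populations the genes parted. BRINP3 was at 99.9% of its resistant monoculture level in the coculture (96.5 to 103) and COL21A1 at 99.4% (93.5 to 106). ZNF385D was at 88.1% (84.2 to 92.0) and TEX19 at 60.2% (56.5 to 64.2). NAV3 was at 128% (123 to 133). The intervals leave out the choice of scaling: TMM factors, an alternative scaling, shifted the log2 of these ratios by -0.07. The rule set a floor on the resistant monoculture level, so these ratios share a library with the choice of the genes and are not independent of it. With a limit of 1.2-fold, TEX19 was lower in coculture, as 6.9% of 8678 genes of at least 5 CPM in either population were, and NAV3 was higher, as 15.8% were. NAV3 was higher in coculture in all 9 clusters of at least 50 cells in both resistant populations, and TEX19 lower in 8 of them. The exception was cluster 9, with TEX19 at 6.88 CPM in 67 coculture cells and 6.12 CPM in 108 monoculture cells, and overlapping intervals. In cluster 0, which held the most cells, TEX19 was at 8.57 CPM in coculture and 13.9 CPM in monoculture, and NAV3 at 23.1 and 18.3 CPM. In clusters 9, 10, 11 and 13, 4 of the 9, the intervals of both libraries overlapped for each of these genes, with TEX19 at 2.17 and 2.63 CPM in cluster 10. With 1 library on each side, coculture and library cannot be told apart.

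Within resistant cells, ZNF385D, COL21A1 and TEX19 were low in clusters 6 and 10, which were chosen here after their values were seen. In resistant monoculture, the 724 cells of these clusters held COL21A1 at 1.06 CPM against 9.98 CPM in the 6592 cells of clusters 0, 1, 2 and 5, or 10.6% (7.02 to 15.3). ZNF385D was at 6.56 against 19.9 CPM, or 32.9% (28.1 to 38.3), and TEX19 at 4.75 against 12.3 CPM, or 38.6% (32.01 to 46.1). BRINP3 was at 21.5 against 29.8 CPM, or 72.1%, and NAV3 at 18.3 against 17.1 CPM, or 107% (96.9 to 117). The genes were thus split, with the collagen gene close to lost and the interval of the navigator gene on both sides of 100%. MGP was at 1365 against 7093 CPM in the same cells, while mCherry was at 84.9 against 51.0 CPM.

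Resistant coculture cells showed the same division. In 652 cells of clusters 6 and 10 against 5283 cells of clusters 0, 1, 2 and 5, COL21A1 was at 13.7% (9.16 to 19.8), TEX19 at 23.7% (16.7 to 32.8) and ZNF385D at 29.5% (24.2 to 35.7). BRINP3 was at 78.1% and NAV3 at 124% (114 to 136). Cluster 3, to which 91 resistant coculture cells belonged and which held mostly sensitive cells of the coculture, was low for all 5 genes: BRINP3 (10.2 CPM), ZNF385D (4.21), NAV3 (6.31) and TEX19 (0.901 CPM, 3 UMIs) had their lowest level there among the clusters of at least 50 resistant coculture cells, and COL21A1 was at 3.90 CPM. In these 91 cells FABP7 was at 150 CPM, against 14.4 CPM over all resistant coculture cells, and MGP at 1830 against 5983 CPM. In clusters 6 and 10 of both populations 3 of the 5 genes were at least 2-fold lower, where 0.971% of 8447 genes in resistant monoculture and 0.931% of 8594 genes in resistant coculture were. These clusters were picked for the low values of these genes, so the count restates that choice and shows no enrichment. COL21A1 was low within each phase of the cell cycle. In the coculture it was at 18.2% in G1, 10.5% in S and 4.58% in G2M cells, the last from 1 UMI with an interval of 0.116% to 25.7%. In monoculture it was at 11.2%, 11.0% and 3.91%. NAV3 was at 129%, 131% and 120% in the coculture and at 109%, 114% and 93.8% in monoculture. The median cell of clusters 6 and 10 held 36699 UMIs against 35388 in resistant monoculture and 31379 against 30495 in resistant coculture. Among G2M cells it was shallower, with 33630 against 37130 UMIs in monoculture and 26922 against 33110 in coculture.

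**Figure D4:**
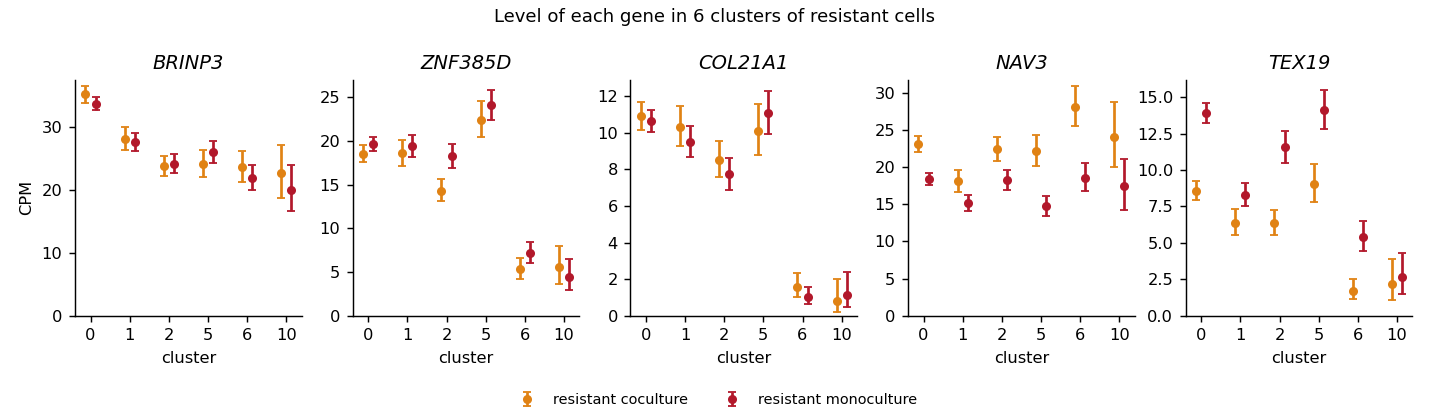
Level of each gene, in CPM, in 6 of the authors' clusters for resistant coculture and resistant monoculture cells, with 95% Poisson intervals. COL21A1 lies between 0.789 and 1.59 CPM in clusters 6 and 10 and between 7.72 and 11.1 CPM in clusters 0, 1, 2 and 5, while NAV3 lies between 14.7 and 28.1 CPM in all 6.

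The levels were also compared across cell cycle phases, as called by the authors. BRINP3 was at 31.5 CPM in G1, 28.5 in S and 23.1 in G2M cells of resistant monoculture, and at 32.2, 27.7 and 23.4 CPM in resistant coculture. Its G2M level was thus 73.1% (68.7 to 77.7) and 72.7% (68.0 to 77.8) of its G1 level. TEX19 was lowest in S, with 63.8% of the G1 level in monoculture (58.3 to 69.7) and 71.6% in coculture (62.4 to 81.9). NAV3 stood in G2M at 98.5% and 99.7% of its G1 level, and in S at 90.1% and 87.2%. ZNF385D stood between 89.3% and 94.9% in S and G2M of both libraries, and COL21A1 between 73.8% and 89.1%.

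Over 19 profiles, the clusters of at least 50 cells in each resistant population, the levels of the 5 genes were correlated as a description. The profiles include clusters 3, 6 and 10, so the values restate the low levels there and are not independent of them. The log2 levels of ZNF385D had r = 0.91 with TEX19 and 0.87 with COL21A1, and those of COL21A1 had 0.73 with TEX19. NAV3 had r = 0.04 with ZNF385D, 0.06 with TEX19 and -0.23 with COL21A1. BRINP3 lay between, with r = 0.66 with NAV3, 0.57 with TEX19, 0.53 with ZNF385D and 0.33 with COL21A1. Of 6683 genes that averaged 10 CPM or more, those most like COL21A1 were CELSR2 (r = 0.98), MGP (0.96), NUCB2 (0.95), WIPI1 (0.95) and CD163L1 (0.94). Those most like ZNF385D were MGP (0.94), WIPI1 (0.88), SLC2A10 (0.88), TAF10 (0.88) and CD163L1 (0.88), so 3 genes stood on both lists. TEX19 was most like ZNF385D (0.91), LRRC73 (0.86), CCPG1 (0.85), C5orf38 (0.82) and KLRG2 (0.82). BRINP3 was most like FGFR4 (0.78), P2RX4 (0.77), GCC2 (0.73), CAP2 (0.72) and MROH1 (0.72), and NAV3 like PPIL3 (0.78), MCM3AP (0.77), CLASP2 (0.76), MRPL53 (0.76) and ID1 (0.76). The profiles share 2 libraries and differ in depth, and by rank correlation none of the 5 nearest genes was the same for ZNF385D or COL21A1.

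The chromosomal neighbours stood below the 5 genes in the monoculture difference. The 5 genes were chosen for that difference, so standing above their neighbours in part restates the choice. Of the 30 nearest counted genes, 3 on each side of each gene, 18 had at least 50 UMIs over both monocultures. Their log2 ratio of resistant over sensitive monoculture (pseudocount 1 CPM) ran from -0.93 to 1.42 with a median of 0.03, against 2.98 to 4.67 for the 5 genes. The median over all 12970 genes with that many UMIs was -0.07. By the ratio of CPM without a pseudocount, 3 neighbours were at least 2-fold higher, as 5.98% of those genes were, and 1 was at least 2-fold lower, as 8.38% were. The higher ones were SGO1, a guardian of chromosome cohesion near ZNF385D (15.6 and 43.5 CPM in sensitive and resistant monoculture), E2F7, a cell cycle repressor next to NAV3 (0.499 and 1.48 CPM), and SECTM1 next to TEX19 (1.36 and 2.78 CPM). The lower one was BEND6 near COL21A1, at 1.85 and 0.831 CPM. DST, the next gene to COL21A1 on that side, was at 77.0 and 39.9 CPM. The monocultures differed in phase, with 2963 of 3329 sensitive and 3781 of 7557 resistant cells called G1. The neighbours were not compared within a phase, so the part of phase in their ratios was not tested.

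**Figure D5:**
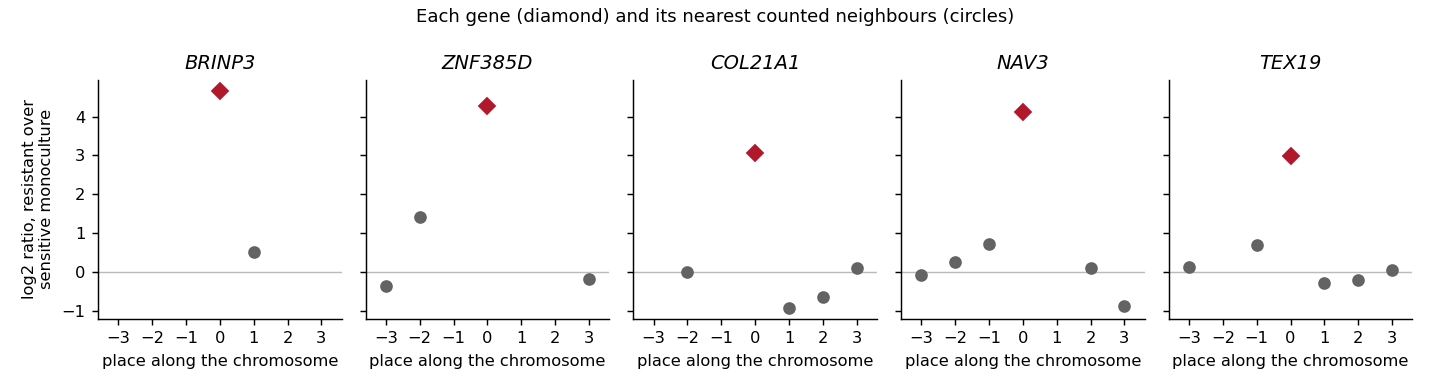
Log2 ratio of resistant over sensitive monoculture (pseudocount 1 CPM) for each gene, drawn as a diamond at place 0, and for those of its 3 nearest counted genes on each side with at least 50 UMIs, drawn as circles. The 18 neighbours lie between -0.93 and 1.42 and the 5 genes between 2.98 and 4.67.

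Relatives of the 5 genes also stood below them in the difference between the monocultures, which again in part restates how the 5 were chosen. BRINP2 had 5 and 33 UMIs in sensitive and resistant monoculture and BRINP1 fewer than 50 over both. ZNF385A was at 37.0 and 31.1 CPM and ZNF385C at 0.478 and 0.502 CPM. Of the 4 other FACIT collagen genes with enough UMIs, COL9A2 was at least 2-fold higher (0.821 and 1.73 CPM) and COL12A1 at least 2-fold lower (3.69 and 1.52 CPM), against 5.98% higher and 8.38% lower of all 12970 genes. NAV1 was at 2.46 and 3.59 CPM and NAV2 at 0.956 and 0.162 CPM. The relatives with enough UMIs thus ranged from lower to about 2-fold higher. Of the 3 other germline genes with enough UMIs, BRDT, a testis bromodomain gene, was at 19.8 and 7.24 CPM and SYCP3, of the meiotic chromosome axis, at 0.873 and 0.244 CPM, so both were at least 2-fold lower, against the same 8.38%.

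Gene groups tied to the functions of the 5 genes had medians below the -0.07 of all genes in the same comparison. Among 13 genes of DNA methylation, the median log2 ratio was -0.17, 1 was at least 2-fold lower and none was 2-fold higher, against 8.38% lower and 5.98% higher of all 12970 genes. UHRF2, a reader of methylated DNA, was at 7.64 CPM in sensitive and 3.27 CPM in resistant monoculture, and DNMT1, the maintenance methyltransferase, at 59.1 and 90.1 CPM. Among 11 targets of BMP and retinoic acid signalling, 4 were at least 2-fold lower and 1 higher, with a median of -0.41, against the same 8.38% and 5.98%. RARRES1, a retinoic acid responder, was at 21.9 and 1.62 CPM and ID3, a BMP target, at 938 and 275 CPM. The higher one was STRA6, a receptor for retinol uptake, at 0.0831 and 1.04 CPM (8 and 283 UMIs), or 12.6-fold (6.29 to 29.4). Among 14 genes of microtubule plus ends the median was -0.26, with 1 at least 2-fold higher and 1 lower, against 5.98% and 8.38% of all genes. The higher one was SLAIN1, at 0.0623 and 0.288 CPM, or 4.62-fold (2.03 to 13.0). MAPRE3, an end-binding protein gene, was at 7.32 and 3.39 CPM, and DST at the values above. The groups were picked with these genes in view, and nothing particular to them follows from the counts. Neither the groups nor the relatives were compared within a phase.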

How the data were processed

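Single-cell RNA was measured in 3 libraries, 1 per condition. The authors aligned reads and counted UMIs with Cell Ranger 3.0.2 on GRCh37 and deposited unnormalized counts per gene and barcode. Their deposited annotation gives each kept cell's total count, mitochondrial percent, phase, cluster and population. A further 12 columns of it were not used. Rows without a symbol held 0.523% to 0.591% of each library's UMIs and were set aside, and no cell's total then differed from the annotation by more than 6 UMIs. All barcodes within the study's stated limits of genes, UMIs and mitochondrial percent were annotated in both monocultures, so the annotation shows no removal of doublets there, and none were called here.

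UMIs were summed over each population's cells (sensitive cells 96247731 alone and 70896822 in coculture, resistant cells 270891547 alone and 199632131 in coculture) and expressed as CPM. Sums carry exact Poisson, shares Clopper-Pearson and ratios exact conditional binomial intervals at 95%, for counting error only, since cells of 1 library are not replicates. A count of 0 was given a limit of 3 counts. Log2 ratios took a pseudocount of 1 CPM, whereas counts of genes past a fold limit took the ratio of CPM without it. Thinning drew 5000 UMIs per cell without replacement. TMM factors from edgeR 4.0.16 served as scaling only. Tested on simulated data for resistant over sensitive monoculture (12970 genes, 200 changed), the ratio intervals held the true fold for 96.0% of changed genes. The simulated sums were Poisson draws, the model that the intervals assume, so this checks the calculation only. Variation between cells or between libraries was not simulated. Positions are from GENCODE 44 lifted to GRCh37, later than the annotation counted on, and start windows from RefSeq (GRCh38.p14); strand use in counting is not given in the sources used here.

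The 5 genes, the gene lists and the tests were chosen with earlier results of these data known. Named besides the 5 genes and both transgenes were from each list the 2 with the largest monoculture log2 ratio, the 3 nearest counted genes on each side, the 3 genes just inside and just outside the limit, the 5 most alike across resistant clusters, and MGP and FABP7 as values beside the 5. BRINP2, ZNF385D-AS1, LUM, STRA6 and SLAIN1 were named for a count or check, after their values were seen.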

Additional observations from a re-analysis of the deposited data

Results flagged for a closer look

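TEX19 and ZNF385D moved in opposite directions with coculture in the sensitive and the resistant cells. TEX19 was 3.09 times higher in sensitive coculture than in sensitive monoculture (2.23 to 4.32), while in resistant cells its coculture level was 0.602 times the monoculture level (0.565 to 0.642). ZNF385D was 151 times higher in sensitive coculture (26.5 to 6005, from 1 UMI in sensitive monoculture), and 0.881 times its monoculture level in resistant coculture (0.842 to 0.92). Both ratios take as denominator a monoculture level by which the genes were chosen, low in sensitive and high in resistant cells, so the opposite directions are not independent of that choice. With 1 library per condition the difference between sensitive and resistant cells was not tested.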

How the results depend on the processing

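The median log2 ratio over the 5 genes, 4.13 between the monocultures, was 6.76 with a pseudocount of 0.1 CPM and 1.43 with 10 CPM. Within the coculture, 2.75, it was 3.03 and 1.19 with these pseudocounts, 3.11 in cells with at least 2 UMIs of their own transgene and 2.53 with cells thinned to 5000 UMIs. The number of genes at least 16 times higher in resistant coculture cells, 0, was 1 in cells with at least 2 transgene UMIs, and 3 at a fold of 8. The median sensitive coculture level, 11.9% of the resistant one, was 7.86% in cells with at least 2 mVenus UMIs, 9.75% without the 1% of cells holding the most UMIs of the 5 genes, 9.79% in cluster 12, the only cluster with under 5% resistant coculture cells (27 sensitive cells), and 7.03% in clusters 3 and 7, a choice made after seeing the data. The value in cluster 12 rests on 2 UMIs of BRINP3 (2.81 CPM, 0.340 to 10.2) and can show little. Of 49 such values 37 were within a set limit. For counts the limit was 1.5 times, otherwise it came from the counting interval of the gene at the median. For sensitive coculture over monoculture that gene was ZNF385D, with 1 UMI in sensitive monoculture, so the limit was too wide to show a change. The median there, 1.34, was 3.73 and 0.208 with pseudocounts of 0.1 and 10 CPM, and 0.923 in cells with at least 2 transgene UMIs. The sign changed only for the median of resistant coculture over monoculture, -0.0079, whose interval includes 0. That median was 0.0274 with thinned cells. List medians changed sign for the ZNF385 family (0.0233) and the FACIT collagens (0.00532) with no UMI minimum, and for the navigators with at least 200 UMIs (0.41) and with a pseudocount of 10 CPM (0.00815). Of 150 alternative values of single genes' log2 ratios, 5 had the other sign, all of resistant coculture over monoculture and of genes whose interval includes 0: BRINP3, -0.0019, was 0.00710 to 0.0294 in G1 cells, in cells with at least 2 transgene UMIs, as a mean per cell and with thinned cells, and COL21A1, -0.0079, was 0.12 with thinned cells. All 5 genes stood at least 16-fold higher between the monocultures under every scaling and choice of cells tried, but they were chosen by this limit on the same libraries. The interval of TEX19, 15.3 to 26.6, reaches below 16. TMM scaling shifted log2 ratios between the monocultures by 0.11 before the pseudocount, and those of resistant coculture over monoculture by -0.07. For the latter it moved 3 of the 5 genes past their counting intervals. BRINP3 was then at -0.071, ZNF385D at -0.242 against -0.174 and NAV3 at 0.269 against 0.337. No paired analysis was possible because each condition had 1 library. Depth limits the sensitive monoculture levels most, where ZNF385D rests on 1 UMI and NAV3 on 3.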

Other observations

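Barcodes outside the annotation, which the labels put in no population, were read the same way. In the coculture library, 3523 barcodes within the quality limits had no transgene UMI, with BRINP3 at 22.9 CPM (22.0 to 23.8), ZNF385D at 12.8, COL21A1 at 7.496, NAV3 at 14.8 and TEX19 at 6.89 CPM, and FABP7 at 111 CPM. A further 472 barcodes within the limits had UMIs of both transgenes, with BRINP3 at 15.3 CPM (13.5 to 17.2), ZNF385D at 10.8, COL21A1 at 5.71, NAV3 at 12.7 and TEX19 at 4.54 CPM, and FABP7 at 121 CPM. Both sets lay between the sensitive and the resistant coculture levels, except TEX19 in the first set, whose interval (6.39 to 7.42) includes the resistant level of 6.87 CPM. The 982 barcodes outside the limits with mVenus alone had BRINP3 at 5.60 CPM (4.68 to 6.65), against 3.43 CPM in annotated sensitive coculture cells. NAV3 was at 3.34 CPM (2.64 to 4.16) against 2.36. ZNF385D was at 1.92 (1.40 to 2.58) against 1.57, COL21A1 at 1.54 (1.08 to 2.13) against 1.40 and TEX19 at 1.75 (1.26 to 2.38) against 1.76 CPM, so these intervals included the annotated level.

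In the sensitive monoculture library, 4088 barcodes outside the limits without a transgene UMI held 4 UMIs of BRINP3, 2 of ZNF385D, 3 of COL21A1, 4 of NAV3 and 26 of TEX19. TEX19 was thus at 0.513 CPM there (0.335 to 0.752), against 0.571 CPM in annotated cells. In the resistant monoculture library, 2578 barcodes outside the limits without a transgene UMI had BRINP3 at 33.2 CPM, ZNF385D at 14.4, COL21A1 at 14.1, NAV3 at 16.6 and TEX19 at 12.4 CPM.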
